A study of Mus musculus with 8 samples.

Results

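Cytosolic ribosomal protein genes encode the proteins of the large (Rpl) and small (Rps) subunits of the ribosome that works outside the mitochondria. The members were all probe sets whose single annotated gene symbol had the form Rpl or Rps with a number and an optional a, x, y or l, or was Rplp0, Rplp1, Rplp2 or Rpsa. This rule used names and no measured value. It gave 50 of the 24965 probe sets, for 36 of the 13675 genes with a probe set of their own, with 49 probe sets for 35 genes on the array type MG-U74A and 1 probe set, for Rpl27, on MG-U74B. Of these, 23 probe sets belonged to 18 genes of the large subunit and 27 to 18 genes of the small subunit. Several symbols, of which at least 1 was ribosomal, were annotated to a further 39 probe sets of MG-U74A and 5 of MG-U74B, and they are given below only as a group, without names.

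The study compared knock-out mice, which lack 1 gene, with wild type mice by the total RNA of their pancreatic islets, to ask which transcripts differ between them. Each genotype had 2 replicates on each of the 2 array types, 8 arrays in all, and the labels call the replicates biological. The labels give no strain, age, sex or allele and do not say whether animals were pooled, so the p-values reflect differences among these few arrays that may be technical. How strongly the targeted gene itself was expressed was not analysed here, so genotypes are those the labels state.

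The ribosome reads messenger RNA on its small subunit and joins amino acids on its large subunit, and each of its proteins is needed in matching amounts. Its protein genes are among the most highly expressed genes of most cells and are usually regulated together. In the islet, the endocrine cells use ribosomes at the endoplasmic reticulum to make insulin and other hormones.

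Many ribosomal protein transcripts begin with a C followed by a run of C and T, the 5' terminal oligopyrimidine tract, through which their translation is controlled by nutrient signalling. The letters searched for were a C at the first transcribed base followed by at least 4 bases that are each C or T, on the gene's strand only. RefSeq promoters of the mouse assembly GRCm38.p6 were matched for 29 of the 36 member genes. At the start sites annotated there, 5 of the 29 genes (17.2%) began with such a tract, against 813 of 27025 genes (3.01%) in the whole table. By promoter these were 5 of 38 (13.2%), against 2.51% of all promoters. A match describes these letters alone, and no match says only that the annotated first base does not open such a run.

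The 5 matching starts are shown because they are the members in which the tract stands at the annotated start. Each line gives 15 bases before the start and 15 from it, 5' to 3', with the tract in capitals. They lie at chr16:33056467-33056496 (plus strand) for Rpl35a, chr11:114668565-114668594 (plus) for Rpl38, chr17:27635230-27635259 (minus) for Rps10, chr17:33955651-33955680 (minus) for Rps18 and chr3:90213634-90213663 (minus) for Rps27. Rps3 at chr7:99483695-99483724 (minus) and Rpl37a at chr1:72711245-72711274 (plus) are added because they were among the largest rises, and neither start opens with a tract.
Rpl35a: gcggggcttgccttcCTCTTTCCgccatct
Rpl38: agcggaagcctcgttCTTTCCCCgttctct
Rps10: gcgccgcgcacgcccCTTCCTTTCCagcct
Rps18: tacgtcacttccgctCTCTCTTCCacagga
Rps27: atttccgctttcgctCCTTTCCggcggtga
Rps3: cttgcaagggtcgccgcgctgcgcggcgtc
Rpl37a: ttccgctcgccggtctaaaaccgcgcatgc

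Values are the deposited intensities in arbitrary units, scaled by less than 1% per array, and may be negative. Changes are knock-out minus wild type on a log2 scale after values below 0 had been set to 0 and a constant of 10% of the arrays' common trimmed mean had been added. They come from limma with p adjusted by Benjamini-Hochberg over all tested probe sets of an array type, and a member is said to have risen or fallen where the adjusted p was below 0.05. A probe set was tested where its mean over the 4 arrays was at least 62.5. Levels of different probe sets depend on their probes and are not compared with each other. In bulk tissue, fewer cells of a type and less RNA per cell cannot be told apart.

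On MG-U74A, ribosomal protein transcripts of both subunits read higher in knock-out than in wild type islets. Of 33 tested member probe sets, for 26 genes, 20 rose, 4 fell and 9 did not pass the threshold. Over all 7516 tested probe sets of this array type, 23.9% rose and 29.0% fell. Both knock-out arrays lay above both wild type arrays for 25 of the 33 members and below them for 7, where 35.2% and 43.9% of all tested probe sets did so. The median change of the 33 was 0.47 (quartiles 0.17 and 0.75), beside a median of -0.094 over all tested probe sets. These counts cover the members that passed the filter on low values, and 30 of the 33 passed it in both genotypes taken alone. Rps29 162335_at and Rps4l 98148_at, 2 of the 4 that fell, had knock-out means below the filter and were tested through their higher wild type level. Rps28 98086_r_at, which was not called, had a wild type mean below it. Without wild type replicate 1 or replicate 2, 16 rose and 2 fell; without knock-out replicate 1 or replicate 2, 22 and 23 rose and 5 and 6 fell.

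Of 13 tested large subunit probe sets 10 rose and 1 fell, with a median change of 0.49. Of 20 small subunit probe sets 10 rose and 3 fell, with a median of 0.33. Whether the subunits differ was not tested.

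**Figure D1:**
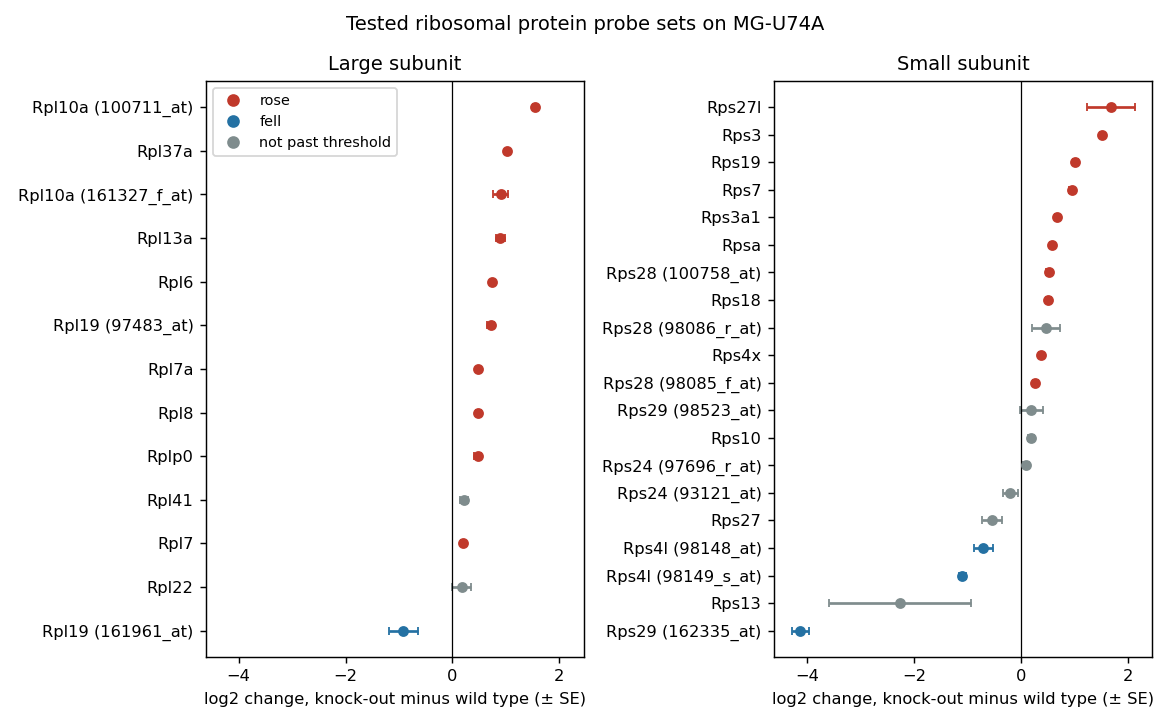
Log2 change of each tested ribosomal protein probe set on MG-U74A with its standard error (n = 2 arrays per genotype), large subunit left and small subunit right, coloured by call; the probe set is given where a gene has several. Of the 13 large subunit probe sets 12 lie above 0, and the 4 probe sets that fell belong to Rpl19, Rps29 and Rps4l.

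The rises of the large subunit were led by Rpl10a, the protein of the L1 stalk, by which spent transfer RNA leaves. Its probe set 100711_at read 2056 and 2095 in wild type and 6226 and 5960 in knock-out. Both knock-out arrays stood far above both wild type arrays, and the change was 1.54 ± 0.04 (SE, adjusted p = 1.18e-04), from 2075 ± 27.5 to 6093 ± 188 (SD, n = 2). A second probe set of the gene, 161327_f_at, read 1166 and 1214 against 2572 and 1962, again without overlap, and rose by 0.90 ± 0.14 (adjusted p = 0.00866).

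Rpl37a, a zinc finger protein of the large subunit, read 2337 and 2404 in wild type and 4857 and 4864 in knock-out. The knock-out arrays nearly coincided, and the change was 1.03 ± 0.03 (adjusted p = 2.02e-04). Rpl13a, which also takes part in silencing of inflammatory transcripts when released from the ribosome, read 368 and 397 against 771 and 694. It rose by 0.89 ± 0.08 (adjusted p = 0.00206), with no overlap of the genotypes.

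The P stalk is the flexible arm of the large subunit that recruits elongation factors. Of its 3 genes, Rplp0, the scaffold on which the other two assemble, was the one with a member probe set. It read 9971 and 10240 in wild type and 14911 and 13157 in knock-out, without overlap. It rose by 0.47 ± 0.07 (adjusted p = 0.00765), a call that was lost without wild type replicate 1 (adjusted p = 0.0612) and without wild type replicate 2 (adjusted p = 0.0527). Neither gene of the particle that carries the 5S RNA, Rpl5 or Rpl11, was represented among the probe sets of 1 symbol.

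Among the other large subunit proteins, Rpl6 rose by 0.75, Rpl7a by 0.49 and Rpl8 by 0.48, each with both knock-out arrays above both wild type arrays. Under quantile normalization they also passed, but with smaller changes of 0.26 for Rpl7a and 0.25 for Rpl8, and 0.22 for Rplp0. Rpl7 rose by 0.20 (adjusted p = 0.0213), which quantile normalization reduced to 0.0014 and which did not pass without wild type replicate 1 (adjusted p = 0.160) or replicate 2 (adjusted p = 0.140). Rpl41, which encodes the smallest ribosomal protein, at 0.22 (adjusted p = 0.0610) and Rpl22, an RNA-binding protein, at 0.17 (adjusted p = 0.455) did not pass the threshold. Without knock-out replicate 1 (adjusted p = 0.0475) or replicate 2 (adjusted p = 0.0119) Rpl41 passed as a rise, as it did under quantile normalization (0.30, adjusted p = 3.46e-04) and common median scaling (0.28, adjusted p = 0.0253).

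In the small subunit, Rps3, which lines the channel where messenger RNA enters, read 3683 and 3801 in wild type and 11011 and 10493 in knock-out. The genotypes were widely separated, and the change was 1.52 ± 0.04 (adjusted p = 1.48e-04), from 3742 ± 83.5 to 10752 ± 366 (SD, n = 2). Rps19, the protein most often mutated in Diamond-Blackfan anaemia, read 3846 and 3864 against 8238 and 7495. It rose by 1.02 ± 0.06 (adjusted p = 5.56e-04), again without overlap.

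Rps7, needed for processing of the small subunit's RNA, read 4809 and 4879 in wild type and 9779 and 9036 in knock-out. It rose by 0.95 ± 0.05 (adjusted p = 4.91e-04), with the knock-out arrays well above the wild type arrays. Rps3a1 rose by 0.67, Rpsa, which doubles as a laminin receptor, by 0.58, Rps18 by 0.52 and Rps4x by 0.38. Under quantile normalization these 4 passed with smaller changes, of 0.44, 0.36, 0.32 and 0.15. Rps10 at 0.19 (adjusted p = 0.0652) did not pass, although both knock-out arrays lay above both wild type arrays, and its direction turned under quantile normalization (-0.074). It passed as a rise under common median scaling (0.25, adjusted p = 0.0244).

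Of the genes whose starts carry the tract shown above, Rps18 rose, while Rps10 and Rps27 did not pass. Rps27 read 515 and 502 in wild type and 411 and 284 in knock-out, a change of -0.54 ± 0.18 (adjusted p = 0.0711). Without knock-out replicate 1 or replicate 2, Rps27 passed as a fall (adjusted p = 0.00719 and 0.0281) and Rps10 as a rise (adjusted p = 0.0224 and 0.00596). Rpl35a and both probe sets of Rpl38 were too low to be tested.

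Some small subunit probe sets of low intensity went down or scattered widely. Rps13 read 433 and 415 in wild type, with 323 in knock-out replicate 1 and -110 in replicate 2. The knock-out arrays were both lower but far apart, and the change of -2.26 ± 1.33 did not pass (adjusted p = 0.222). Without knock-out replicate 1 the change was -4.16, and without replicate 2 it was -0.36. Sizes that include knock-out replicate 2, which was set to 0, depend on the constant added. With all arrays the change was -2.91 at a constant of 4% and -1.79 at 20%.

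Of the paralogs of core ribosomal proteins, some of which replace a standard protein in some tissues, 2 genes were tested and went in opposite directions. Rps27l, a p53-inducible relative of Rps27, read 132 and 76.2 in wild type and 256 and 569 in knock-out. The genotypes did not overlap, and it rose by 1.69 ± 0.45 (adjusted p = 0.0372), the largest of the rises and the one with the largest error. The call was lost without wild type replicate 1 (adjusted p = 0.0678), wild type replicate 2 (adjusted p = 0.138) or knock-out replicate 2 (adjusted p = 0.0991).

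Rps4l, a relative of Rps4x, fell on both of its tested probe sets. Probe set 98149_s_at read 592 and 583 in wild type and 259 and 264 in knock-out, a clear separation, and fell by 1.10 ± 0.06 on the log2 scale (adjusted p = 6.74e-04). Probe set 98148_at read 112 and 120 against 68.2 and 55.5 and fell by 0.70 ± 0.18 on that scale (adjusted p = 0.0335). The second call was lost without wild type replicate 1 (adjusted p = 0.154) or replicate 2 (adjusted p = 0.188).

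Of the other paralogs, Rpl7l1 and Rpl39l had a probe set each that was too low to be tested. Rpl7l1, a relative of Rpl7, read 6.60 and -26.3 in wild type and 139 and 115 in knock-out. Its mean of 58.6 was the highest among the untested members, just under the filter.

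Of the 6 member genes with at least 2 tested probe sets, 2 had probe sets whose changes lay more than 1 log2 unit apart. Over all genes of MG-U74A, 217 of 879 (24.7%) did so. Rpl19, a protein near the exit tunnel of the nascent chain, was the gene with changes called in opposite directions, among 4 member genes with at least 2 changed probe sets. Over all genes this was seen in 41 of 330 (12.4%).

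The probe set 97483_at of Rpl19 read 6386 and 6326 in wild type and 11047 and 9856 in knock-out. It rose by 0.71 ± 0.06 (adjusted p = 0.00190), with both knock-out arrays higher. The probe set 161961_at of the same gene read 258 and 305 in wild type and 103 and 179 in knock-out, with both knock-out arrays lower, and fell by 0.92 ± 0.27 on the log2 scale (adjusted p = 0.0482). That fall lay close to the threshold and was lost without wild type replicate 1 (adjusted p = 0.119), wild type replicate 2 (adjusted p = 0.189) or knock-out replicate 1 (adjusted p = 0.0638).

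Rps29, a small zinc-binding protein of the head of the small subunit, had probe sets that lay 4.32 log2 units apart. Probe set 162335_at read 403 and 419 in wild type and was listed below 0 in both knock-out arrays, at -136 and -53.2. It fell by 4.12 ± 0.17 on the log2 scale (adjusted p = 3.17e-04), a size that depends on the constant added and ranged from -5.39 to -3.20 with other constants, so no ratio is given. Probe set 98523_at read 119 and 181 in wild type and 163 and 182 in knock-out, overlapped between genotypes and did not pass (0.19 ± 0.22, adjusted p = 0.499).

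The remaining genes with several tested probe sets showed smaller gaps. For Rps28, 100758_at rose by 0.52 and 98085_f_at by 0.27, while 98086_r_at, with arrays between 50.1 and 104, did not pass at 0.47 (adjusted p = 0.192), except without knock-out replicate 2 (adjusted p = 0.040). Under quantile normalization the rises were 0.26 and 0.098. The rise on 98085_f_at was lost without wild type replicate 1 (adjusted p = 0.112) or replicate 2 (adjusted p = 0.101). For Rps24, neither probe set passed, at 0.10 on 97696_r_at and -0.20 on 93121_at. Under quantile normalization 97696_r_at turned to -0.088 and passed the threshold as a fall (adjusted p = 0.0178), and without knock-out replicate 2 it passed as a rise (adjusted p = 0.0201).

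**Figure D2:**
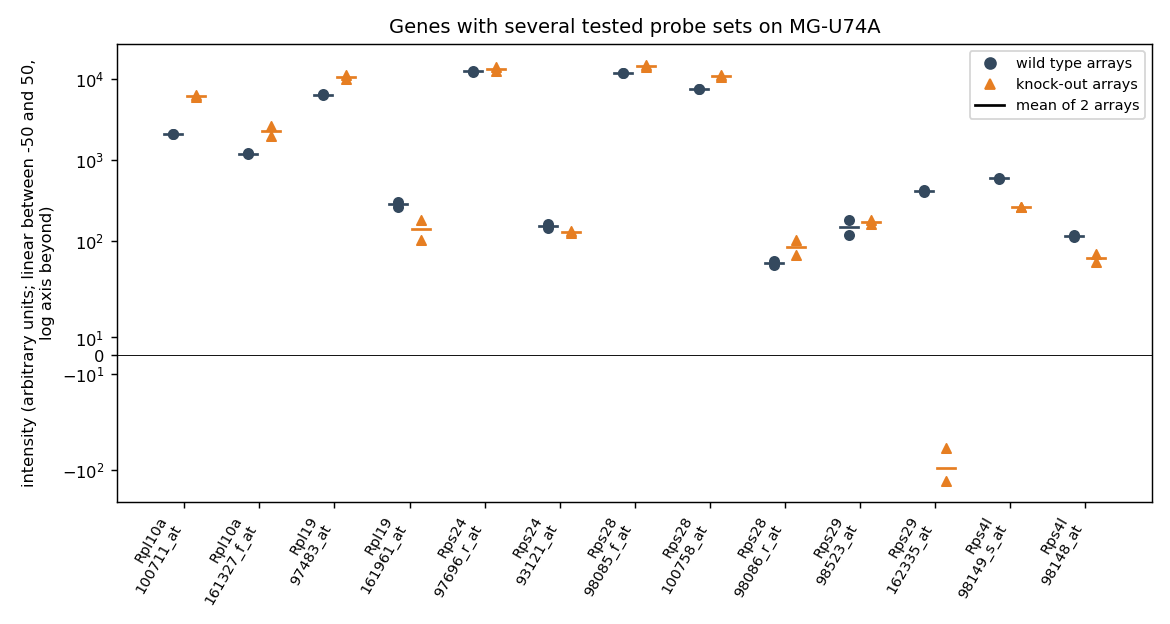
Intensity of each array for the 6 genes with at least 2 tested probe sets on MG-U74A, on an axis that is linear near 0 and logarithmic beyond, with 2 wild type arrays (circles), 2 knock-out arrays (triangles) and their mean (line). The probe sets of Rpl10a are both higher in knock-out, those of Rpl19 go opposite ways, and 162335_at of Rps29 is below 0 in both knock-out arrays.

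The names of the probe sets carry a suffix that tells how specific the probes are, and a plain at marks those designed to match 1 transcript. Of the tested members 24 had the plain suffix, of which 16 rose, and 9 had another suffix, of which 4 rose. The shares by suffix over all tested probe sets were not computed, so no difference between suffixes is read from these counts. In 2 cases a single sequence record stood behind 2 member probe sets, 1 of them shared by probe sets annotated to Rpl7 and Rps24. Such probe sets are not independent measurements.

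The 16 untested members had means below the filter, and 14 of them had at least 1 array at or below 0. Both knock-out arrays were higher in 7 of them and lower in 4. The shares over all untested probe sets were not computed, so no direction is read from these counts. In 5 of the 16, all 4 arrays were at or below 0. Rps4x held 4 untested probe sets beside 1 tested one: 161654_r_at was listed between -571 and -415 on all 4 arrays while 100780_at of the same gene read 7037 ± 7.43 in wild type and 9171 ± 321 in knock-out. In 9 genes no probe set could be tested, so nothing is shown here of their transcripts, among them Rps14, Rps15, Rps20 and Rpl32.

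Most bright members rose and the dimmer ones went both ways, as the plot of change against mean intensity shows. With a limit of 1000 for the mean of the 4 arrays, chosen after the values had been seen, 18 of 21 members above it rose and 0 fell by limma. Of all tested probe sets above that limit, 41.2% rose and 40.2% fell. Both knock-out arrays lay above both wild type arrays for all 21, beside 46.8% of all probe sets in that range. The median change of the 21 was 0.52, against -0.012 for all probe sets above the limit. Under quantile normalization the median of the 21 was 0.32, with 18 that rose and 1, Rps24 97696_r_at, that fell. Without wild type replicate 1 or replicate 2, 15 of the 21 rose, and without knock-out replicate 1 or replicate 2, 20 and 21 rose.

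Below the limit, 2 of 12 members rose (16.7%) and 4 fell (33.3%), with a median of -0.37. These shares lie near those of all tested probe sets below it, of which 21.5% rose and 27.4% fell, with a median of -0.11. In the range from 1000 to 5000, 3 of 3 members rose with a median of 1.03, beside 309 of all 796 probe sets, with a median of -0.043. In the range from 5000 to 10000, 12 of 13 members rose with a median of 0.58, beside 51 of all 79 probe sets there, with a median of 0.31. The counts of all probe sets include the members, which are 13 of the 79 in that range. At 10000 or more, 3 of 5 members rose with a median of 0.27, beside 13 of all 31 with a median of 0.10.

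**Figure D3:**
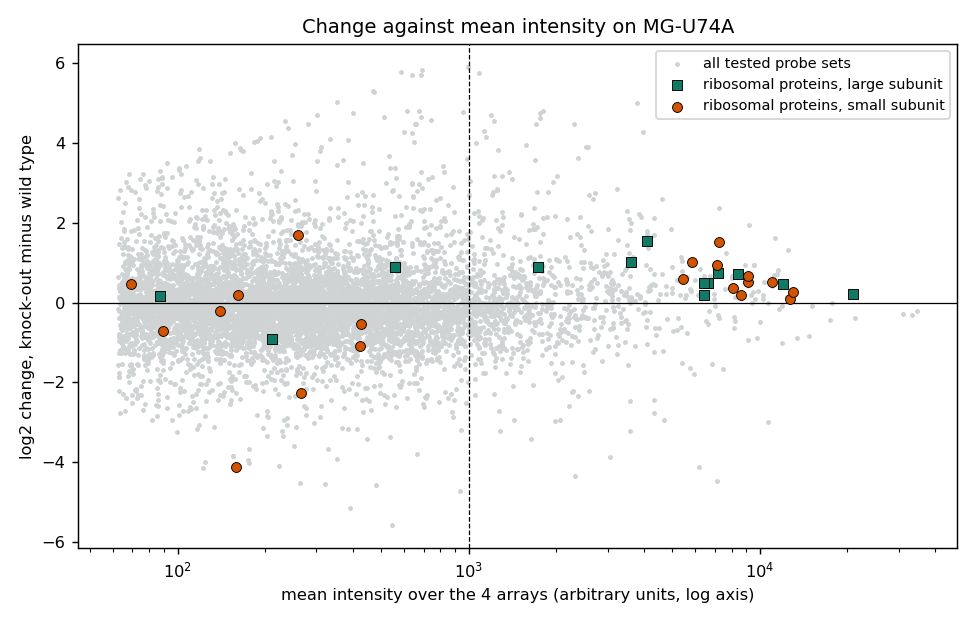
Log2 change of all 7516 tested probe sets on MG-U74A (grey) against their mean intensity on a log axis, with the ribosomal protein probe sets of the large (squares) and small (circles) subunit; the dashed line marks 1000. All 21 members right of the line lie above 0, and the 12 left of it spread from -4.12 to 1.69.

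The bright members also differed in common between the replicates of a genotype. Of the 21, 20 read higher in knock-out replicate 1 than in replicate 2, the exception being Rpl37a, with a median difference of 0.10 log2 units. Over all 906 probe sets above the limit 59.7% did so, with a median of 0.025. In wild type 4 of the 21 were higher in replicate 1, with a median difference of -0.021. Among all 906, 41.8% were higher in wild type replicate 1, with a median of -0.0065. The median gap between the knock-out replicates was smaller than the median change between genotypes of 0.52. These medians do not describe each member, and the part of the replicate shift in the changes between genotypes was not tested.

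Probe sets with several symbols, at least 1 of them ribosomal, also rose in most cases on MG-U74A. There 28 of 34 tested rose and 1 fell, with changes from -0.26 to 1.83 and a median of 0.66, where 23.9% of all tested probe sets rose and 29.0% fell. Of the 29 with a mean of at least 1000, 25 rose and 1 fell, beside 41.2% and 40.2% of all probe sets in that range. On MG-U74B 2 of 4 tested rose and 0 fell by limma, with a median of 0.53, where 8.59% of all tested probe sets rose and 8.87% fell.

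On MG-U74B the single member was Rpl27, which read 248 and 275 in wild type and 524 and 440 in knock-out. Both knock-out arrays lay above both wild type arrays, as in 36.2% of all tested probe sets there, and the change of 0.82 ± 0.21 did not pass the threshold (adjusted p = 0.0598). On this array type 8.59% of 7861 tested probe sets rose and 8.87% fell, so few calls of any gene were made.

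Other genes of ribosome production and translation were taken from lists, with the brightest tested probe set standing for a gene. Over all genes taken this way, 22.7% rose and 30.2% fell on MG-U74A, and 9.60% rose and 9.60% fell on MG-U74B. RNA polymerase I makes the large ribosomal RNA precursor, and of 10 tested genes of it and its factors, 2 rose and 1 fell on MG-U74A. Polr1c, a subunit shared with polymerase III, rose by 0.49 and the initiation factor Rrn3 by 0.54, while Polr1d, the partner of Polr1c, fell by 0.60 on the log2 scale. On MG-U74B 0 of 2 tested genes of this list were called, and another probe set of Rrn3 lay at 0.051 (adjusted p = 0.935). Of 35 assembly factors tested on MG-U74A, which fold and trim the RNA and load the proteins, 13 rose and 2 fell, with a median of 0.28.

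The largest assembly factor rises were those of Nhp2, which binds the RNAs that guide pseudouridylation, at 1.51 ± 0.07 (adjusted p = 4.21e-04), and of Ebna1bp2 and Imp4, both at 1.29. Nhp2 read 333 and 372 in wild type and 1052 and 1049 in knock-out. Sbds, which helps to free the large subunit for joining and is mutated in Shwachman-Diamond syndrome, rose by 1.13. On MG-U74B other probe sets of these genes did not pass, at 0.47 for Ebna1bp2, 0.30 for Imp4 and 0.033 for Sbds (adjusted p = 0.176, 0.325 and 0.929). Of 14 tested assembly factors there, 1 rose and 1 fell. The helicase gene Ddx21 rose from a wild type level listed below 0, so no size is given, while its probe set on MG-U74A did not pass (-0.14, adjusted p = 0.128). Gnl3l fell by 0.95 on the log2 scale.

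Elongation factors carry transfer RNA to the ribosome and move it along the message, and 3 of 4 tested rose. Eef1a1, which delivers transfer RNA, read 5468 and 5458 in wild type and 17819 and 16231 in knock-out and rose by 1.63 ± 0.05 (adjusted p = 2.26e-04). Eef2, the translocase, read 1616 and 1661 against 4934 and 4853 and rose by 1.56 ± 0.03 (adjusted p = 1.05e-04). Eef1d, an exchange factor for Eef1a1, rose by 1.08, and Eef1b2 at 0.13 did not pass.

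Initiation factors, which load messenger RNA on the small subunit, went both ways, with 6 of 18 that rose and 8 that fell and a median of -0.091. The helicase gene Eif4a1 rose by 0.82 and its cofactor gene Eif4b by 1.25. The paralog Eif4a2 went from 3151 ± 63.3 to 1619 ± 26.5 (SD, n = 2) and fell by 0.95 on the log2 scale (adjusted p = 2.81e-04), and Eif5 fell by 0.83 on that scale. Of 16 tested non-ribosomal transcripts known for a 5' terminal oligopyrimidine tract, some of which stand in the lists above, 9 rose and 1 fell, with a median of 0.45.

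Among 12 tested regulators of ribosome output, 2 rose and 6 fell, and under quantile normalization or common median scaling 3 rose and 3 fell. Eif4ebp1, which holds back cap-dependent initiation, fell by 0.79 and Tsc1, an inhibitor of mTOR, by 0.76 on the log2 scale. The transcription factor gene Myc, an activator of ribosomal genes, read 114 and 113 in wild type and 223 and 177 in knock-out and rose by 0.69 ± 0.16 (adjusted p = 0.0244), and its partner gene Max rose by 0.73. On MG-U74B 2 of 4 fell. Larp1, which binds the oligopyrimidine tract, fell by 0.81 on the log2 scale. Rptor, a part of the mTOR complex, fell from 251 and 234 to a knock-out mean of -2.85, and no size is given because it would depend on the constant added. On MG-U74A Larp1 did not pass, at 0.24 (adjusted p = 0.0903).

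Mitochondrial ribosomal proteins, which build the separate ribosome of that organelle, had changes centred near 0 on MG-U74A, with 12 of 55 that rose, 6 that fell and a median of 0.052. Mrps12 fell by 1.02, Mrps34 by 0.72 and Mrpl4 by 0.62 on the log2 scale, while Mrpl20 rose by 0.91. Another probe set of Mrps12, on MG-U74B, lay in the other direction at 0.76 and did not pass (adjusted p = 0.451). On MG-U74B 3 of 14 rose and 1 fell, with a median of 0.34. The difference from the cytosolic proteins was not tested.

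**Figure D4:**
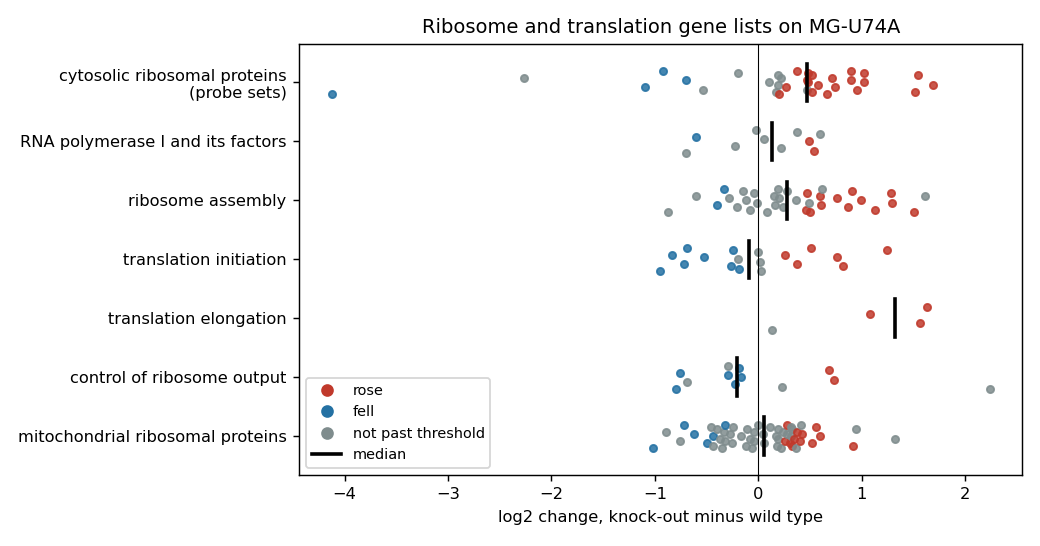
Log2 change of each tested gene of 6 lists, and of the tested cytosolic ribosomal protein probe sets, on MG-U74A, coloured by call, with the median of each row as a bar. The median lies at 0.47 for cytosolic ribosomal proteins, at 1.32 for elongation factors and at 0.052 for mitochondrial ribosomal proteins.

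Other measures differed between the same arrays. On MG-U74A the summed level of macrophage and dendritic cell markers was 5382 and 5190 in wild type and 19227 and 19056 in knock-out, and 11 of 11 tested rose. Fcer1g was at or below 0 in wild type. Lymphocyte markers rose in 6 of 7 tested cases, and their sum went from 4900 and 4898 to 21614 and 20564. Cd2, Cd3e and Cd79a were at or below 0 in wild type, as was Cd3e in knock-out. Of 10 fibroblast and stellate cell markers 9 rose and 1 fell, with sums of 7250 and 7242 against 20882 and 21779.

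Markers of acinar cells, which make digestive enzymes, fell in 7 of 7 cases, with sums of 39218 and 39529 in wild type and 5561 and 4967 in knock-out. Beta cell markers, the defining markers of the labelled tissue, were present in both genotypes, with sums of 73385 and 74289 against 49065 and 44284, and fell in 10 of 10 cases, with a median of -2.35. Ins2 and Iapp, which make up most of these sums, had the smallest changes, at -0.27 and -0.43, while the other 8 lay between -3.93 and -1.30. The -3.93 is that of Slc2a2. Slc2a2 and Pdx1 had knock-out means of 22.3 and 8.50, below the filter, so the sizes of their falls depend on the constant added. Under quantile normalization 9 of the 10 beta cell markers fell, and Ins2 turned direction and did not pass. The Gapdh control at the 3' end divided by that at the 5' end, a ratio higher where the RNA is less complete, was 3.19 ± 0.0499 in wild type and 0.943 ± 0.00849 in knock-out (SD, n = 2). For actin this ratio was 1.46 ± 0.0157 in wild type and 1.14 ± 0.0269 in knock-out. The control probe set for the 5' end of 18S ribosomal RNA went from 615 ± 8.77 to 339 ± 6.23. That for its 3' end went from 495 ± 22.4 to 758 ± 127. The 18S ratio went the other way from those of Gapdh and actin, from 0.805 in wild type to 2.24 in knock-out. The part of these differences in the ribosomal protein changes was not tested.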

How the data were processed

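Total RNA of islets had been hybridised to 8 Affymetrix arrays, 2 per genotype on each of MG-U74A and MG-U74B. Each probe set has 1 deposited intensity on a linear scale. Which software computed it is not stated in the labels or files. The values show that the authors brought the arrays of a type to a common mean, taken without the extreme 2% of probe sets at either end (250.2 for MG-U74A, 250.1 for MG-U74B). Here each array was multiplied by 1 factor to the common trimmed mean. Values below 0 were set to 0, 10% of that mean was added and log2 taken. Probe sets with a 4-array mean below 25% of it, and 66 control probe sets per type, were not tested.

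Each array type was fitted alone with limma 3.58.1 (lmFit, eBayes with a trend) in R 4.3.3, two-sided, without a replicate block. The fit was tested on simulated data. With 2 arrays a group, the smallest p of an exact permutation test would be 0.333. The number of arrays limits the precision. Symbols came from the array annotation, updated through a GRCm38.p6 table. Values were given for the 8 largest rises and 8 largest falls past the threshold whose genotypes did not overlap, for every tested probe set of genes with opposed changes or changes over 1 log2 unit apart, for P stalk genes and paralogs, and for up to 4 called genes of each other list. Other members named here were chosen after their values were seen. The members and lists were chosen with earlier results of these data known. The name and level of the targeted gene are not reported here.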

Additional observations from a re-analysis of the deposited data

How the results depend on the processing

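On MG-U74A, 16 to 23 member probe sets rose and 2 to 6 fell over the alternatives run: other constants, a floor, no filter, quantile normalization, common median scaling, no variance trend, a replicate block and each replicate left out. Leaving out a replicate gave 16 to 23 rises, 2 to 6 falls and a median of 0.38 to 0.53, and where it left 1 array in a genotype, that array was assumed to vary like the others. With 1 probe set per gene 1 fell. The median moved to 0.26 under quantile normalization, which also turned Rps24 97696_r_at to -0.088 and Rps10 to -0.074, and Rps29 98523_at ranged from -0.065 (without wild type replicate 1) to 0.45 with a replicate left out. The count of genes with opposed probe sets went from 1 to 0 with a constant of 4%, a floor of 8%, no filter, quantile normalization, common median scaling or no trend, and ranged from 0 to 1 with a replicate left out. No filter kept 15 of the 20 rises, losing Rplp0, Rps27l, Rpl10a 161327_f_at, Rpl7 and Rps28 98085_f_at. With the replicate block, 19 rose and 3 fell, and Rps27l (adjusted p = 0.0526) and Rps4l 98148_at (adjusted p = 0.0769) were lost. On MG-U74A the deviations of replicate 1 from its genotype's mean correlated at 0.0241 between wild type and knock-out, across 7516 probe sets. The replicate numbers were therefore not taken as pairs. On MG-U74B no member rose or fell under any alternative, and without either wild type replicate 0 probe sets of that type were called.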
